A study of Homo sapiens with 6 samples.

Results

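The genes described here build the ribosome: RNA polymerase I with its initiation factors, the proteins of box C/D small nucleolar RNPs, the assembly factors of both ribosomal subunits and abundant nucleolar proteins. They were taken from a list of 54 gene symbols. Every probe that the probe table used here gave to one of them, under its current or a former name, was collected. That table did not list 17110 of the 47231 probes of the array. A probe was tested where its signal stood above the negative controls (detection p below 0.05) on at least 3 of the 6 arrays. That gave 47 tested member genes among 10517 tested genes. Of the other 7, NPM1, POLR1A and TAF1D had probes that did not reach this detection. WDR43, GNL3, DDX18 and EBNA1BP2 were not named by the probe table used here and were not analysed.

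All samples were U251, an established human glioblastoma cell line grown in serum-containing medium. The control group, shCON, had received lentivirus from a pLKO1.5 vector coding for a non-target short hairpin RNA. The other group, shCypB, had received the same kind of virus with a hairpin against cyclophilin B, the endoplasmic reticulum prolyl isomerase encoded by PPIB. Total RNA was taken 5 days after transduction, and each group had 3 biological replicates, each on 1 one-colour Illumina bead array. Both groups carried virus and a hairpin, and the labels name 1 hairpin construct against PPIB, so the loss of cyclophilin B and other effects of that construct cannot be told apart.

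Ribosome production starts in the nucleolus, where RNA polymerase I transcribes a long precursor RNA that is modified, folded and cut while ribosomal proteins are added. The precursor is guided by small nucleolar RNPs and by assembly factors that act on the small or the large subunit and leave before the mature subunit is used. In tumour cells, including gliomas, this pathway is tied to growth, and many of its genes are known targets of the transcription factor MYC.

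The 13 member genes that were lower in shCypB and the 6 that were higher were spread over the pathway. NIP7 and PPAN, both of large subunit assembly, fell most, by 1.02 and 0.91 on the log2 scale, though the fall of PPAN, a dim probe, was 0.53 without background correction and 0.57 in the authors' processed values, where it was less than that of IMP4. IMP4 and NOL6 of the small subunit processome, DDX56 of the large subunit and the RNA polymerase I factor UBTF fell by 0.62 to 0.70. The box C/D proteins NOP56 and FBL and the nucleolar protein NCL fell by less. The greatest rise among members was 0.55, for the large subunit factor NOC3L. Calls are at an adjusted p below 0.05 in limma's fit over all tested probes, and where a gene had several tested probes the brightest stands for it.

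Read against all tested genes, 27.7% of the tested members were lower, with 20.8% of all tested genes lower, and 12.8% of the members were higher, with 23.1% of all tested genes higher. In either direction 19 of the 47 members were called, with 43.8% of all tested genes. No list test was made, so these gaps are no result about the members. A change of at least 1.5-fold was found in 6 members that were lower and in 0 that were higher, where 12.2% and 12.4% of all tested genes passed the same limits. Without background correction or in the authors' processed values, UBTF and PPAN were under 1.5-fold, which left 4 lower members, and when probes of a gene were averaged UBTF and NOL6 were, which also left 4. The share of all tested genes called at least 1.5-fold lower was 8.14% without background correction. It was 7.92% in the authors' processed values and 11.7% with probes averaged. On leaving out an array, 1 higher member passed 1.5-fold in 3 of the 6 fits, NOC3L without the third array of shCON or the third of shCypB and NOP14 without the first of shCypB. In those fits 11.9% to 12.6% of all tested genes were called at least 1.5-fold higher. Without regard to the call, 30 members had a negative and 17 a positive log2 change, where 4996 of the 10517 tested genes were negative and 5521 positive. The median change of the members was -0.13, and that of all tested genes was 0.03. The groups did not overlap in 26 of the 47 members, 16 lower and 10 higher, where the groups did not overlap in 56.8% of all tested genes (26.8% lower and 30.1% higher).

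**Figure D1:**
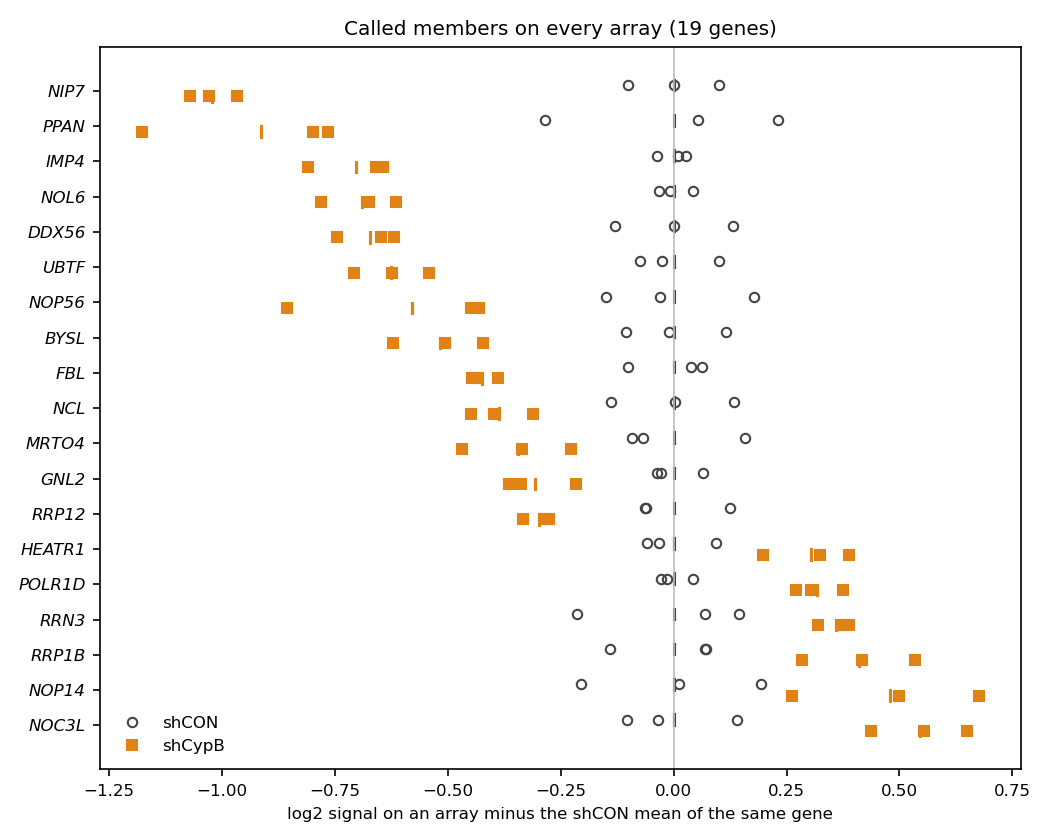
Each called member's log2 signal on every array, shown as the difference from the mean of the 3 shCON arrays (x axis, log2 units), with open circles for shCON, squares for shCypB and short bars for group means. In the 13 lower and the 6 higher genes, no shCypB array lies within the range of the shCON arrays. The genes were chosen by their calls on these same arrays, so this separation is no further support for the calls. The groups did not overlap in 56.8% of all tested genes.

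Between 16597 and 18700 of 47231 probes (35.1% to 39.6%) were detected per array. Arrays of one group correlated at r = 0.987 to 0.994, and arrays of different groups at 0.957 to 0.965. The targeted gene, PPIB, read 6.05, 5.68 and 5.35 (log2 signal) in shCON and was undetected on all shCypB arrays, so it was at least 1.45-fold lower (adjusted p = 0.0034, limma). Its probe was dim in shCON too, as the lowest detected value on the third shCON array was 5.28. The probe passed the detection filter only through shCON, so this p-value is no independent check of the knockdown. The 8 glial markers fixed for this line were detected on all 6 arrays for CD44, FABP7, GFAP, NES, SOX2 and VIM, and on none for OLIG2 and S100B. GFAP fell by 1.84, FABP7 by 1.07 and NES by 0.66, and SOX2 rose by 0.35 on the log2 scale (adjusted p = 0.045, and 0.082 to 0.13 on leaving out any array but the third of shCON). The summed signal of the glial list was 23273 to 26678 in shCON and 22275 to 24097 in shCypB.

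Markers of other cells gave the following levels. Of 5 fibroblast markers, COL1A2 and COL3A1 were detected on all arrays, with a summed signal of the list of 8840 to 10369 in shCON and 8733 to 9099 in shCypB. COL1A2 was the bright gene, at 13.10, 13.33 and 13.27 (log2 signal) in shCON, where COL3A1 read 6.20, 5.79 and 6.10. All samples were 1 cell line, so these sums are not read as a share of other cells. Of 5 endothelial markers none was detected on all arrays and CDH5 and KDR on none, with sums of 33.3 to 62.0 and 27.6 to 35.3. Of 5 leukocyte markers CD68 alone was detected on all arrays and CD3E and PTPRC on none, with sums of 299 to 322 and 277 to 296. No tested marker of these 3 lists was called.

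The RNA levels of proliferation markers moved with the groups as well, and growth itself was not measured here. Of 15 tested proliferation markers, 14 were lower and 0 higher in shCypB, with a median change of -0.82. The shares of all tested genes were 20.8% lower and 23.1% higher. The ribonucleotide reductase gene RRM2 fell by 1.36, the thymidine kinase gene TK1 by 1.23 and MKI67, the Ki-67 antigen of cycling cells, by 1.16. The median of these markers relative to the shCON mean was -0.01, -0.01 and 0.05 in shCON and -0.74, -0.79 and -0.75 in shCypB. On the same arrays the median of the ribosome biogenesis members was -0.03, -0.01 and 0.03 in shCON and -0.10, -0.07 and -0.05 in shCypB. MYC read 9.82, 9.57 and 9.99 in shCON and 9.32, 9.28 and 9.17 in shCypB, a change of -0.53 ± 0.13 (SE, n = 3 per group, adjusted p = 0.014 from limma, 0.053 without the third shCypB array). The part of proliferation or of MYC in the changes of the members was not tested. In bulk RNA, fewer cells of a kind and less RNA per cell cannot be told apart.

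Promoter sequence was examined because the E-box CACGTG, the site bound by MYC with its partner MAX and by other basic helix-loop-helix factors, is a known feature of this pathway. The window ran from 250 bases before to 50 bases after each RefSeq gene start (GRCh38.p14), and since CACGTG is its own reverse complement, both strands are covered by a single search. Of all 35116 windows in the RefSeq table, 7.26% held the motif. A window was found for 46 of the 54 listed members, and 19 of the 46 (41.3%) held CACGTG, where 1095 of 8598 tested genes with a window (12.7%) did. In 18 of these 19 members a motif lay within 50 bases of a start (39.1% of the 46), against 5.52% of the tested genes with a window.

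The 5 called members with the greatest change whose window held the motif are shown with 30 bases each, 5′ to 3′ on the gene's strand, with CACGTG in capitals. In IMP4 the window held it at 2 positions.
IMP4, chr2:130342682-130342711, plus strand: gcggtcctaagtCACGTGtgacattctgta
IMP4, chr2:130342900-130342929, plus strand: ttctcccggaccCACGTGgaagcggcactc
NOL6, chr9:33473894-33473923, minus strand: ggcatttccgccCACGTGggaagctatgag
NOC3L, chr10:94362903-94362932, minus strand: tagggacttcggCACGTGtgtcattccccg
BYSL, chr6:41921515-41921544, plus strand: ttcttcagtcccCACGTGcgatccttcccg
NOP14, chr4:2963374-2963403, minus strand: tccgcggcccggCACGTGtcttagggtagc

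In NOL6 the motif began 13 bases after the start, in NOP14 and at the downstream position of IMP4 15 bases after it, in NOC3L 19 and in BYSL 28. The upstream motif of IMP4 began 203 bases before the start. IMP4, NOL6 and BYSL were lower in shCypB, and NOC3L and NOP14 were higher. These genes were picked by the size of their change in either direction, and a link between the motif and the direction was not tested. The 250 bases before the IMP4 start, chr2:130342647-130342896 on the plus strand, are given because they hold the distal copy, in capitals.
IMP4 upstream: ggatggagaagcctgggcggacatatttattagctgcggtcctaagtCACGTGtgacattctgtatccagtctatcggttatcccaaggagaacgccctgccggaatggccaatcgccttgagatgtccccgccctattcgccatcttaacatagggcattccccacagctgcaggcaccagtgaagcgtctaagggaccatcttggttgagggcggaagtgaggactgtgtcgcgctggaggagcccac

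Among the tested members with a window, CACGTG was held by 6 of 12 that were lower (50%), 2 of 5 that were higher (40%) and 8 of 23 that were not called (34.8%). Over all tested genes the shares were 13.4%, 12.9% and 12.4% in the same order. Of the other ribosome biogenesis and polymerase I genes, 19 of 81 (23.5%) held it, as did 3 of 12 proliferation markers (25%). A match is a string of letters in a window and is not a measured binding site. MYC binding was not measured in these samples.

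**Figure D2:**
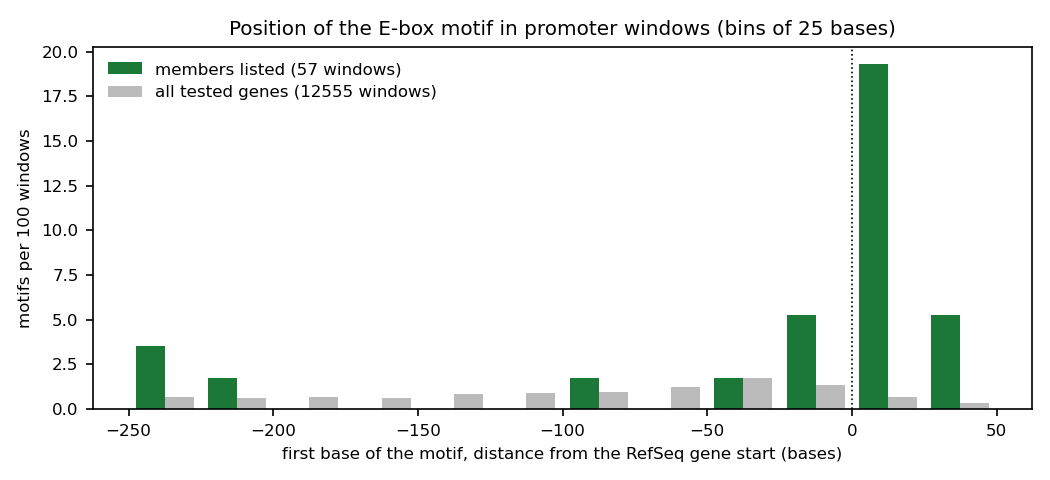
Number of CACGTG motifs per 100 promoter windows (y axis) in bins of 25 bases of distance from the RefSeq gene start (x axis, bases), for the 57 windows of the listed members (green) and the 12555 windows of all tested genes (grey). The first 25 bases after the start held 11 motifs in the member windows, 19.3 per 100 windows, against 0.701 per 100 in the windows of all tested genes.

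In the transcription machinery itself, 1 of 5 tested members was lower and 2 were higher, where 20.8% of all tested genes were lower and 23.1% higher. UBTF encodes the factor that binds ribosomal DNA and keeps it open for RNA polymerase I. Its log2 signal was 6.95, 6.82 and 6.78 in shCON and 6.23, 6.14 and 6.31 in shCypB, a fall of 0.62 ± 0.10 (1.54-fold, adjusted p = 0.0023, limma). Every shCypB array was below every shCON array. Another, dimmer UBTF probe changed by 0.10 ± 0.30 (adjusted p = 0.82), and the mean of both probes did not pass the test (-0.26, adjusted p = 0.28). The change of the brighter probe was -0.40 without background correction (adjusted p = 0.0020) and -0.42 in the authors' processed values (adjusted p = 0.00099).

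RRN3, the initiation factor that brings the polymerase to the promoter, read 7.91, 7.63 and 7.99 in shCON and 8.16, 8.22 and 8.23 in shCypB, a rise of 0.36 ± 0.12 (adjusted p = 0.045). POLR1D, a subunit shared by RNA polymerases I and III, read 9.30, 9.24 and 9.23 in shCON and 9.53, 9.64 and 9.56 in shCypB, a rise of 0.32 ± 0.09 (adjusted p = 0.025). Neither gene's groups overlapped, but a second POLR1D probe changed by -0.11 (adjusted p = 0.50), and the mean of the POLR1D probes by 0.11 (adjusted p = 0.38). The RRN3 call was lost when any array but the third of shCON was left out (adjusted p up to 0.12), and the POLR1D call when any but the first of shCON was (up to 0.080).

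POLR1B, the second largest polymerase I subunit, was not called at 5.38, 5.68 and 5.24 in shCON and 5.69, 5.85 and 6.03 in shCypB (0.42 ± 0.15, adjusted p = 0.054). All shCypB arrays were above all shCON arrays, if only by a small gap. Without the second shCON array the change was 0.55 (adjusted p = 0.022), but it was 0.17 in the authors' processed values (adjusted p = 0.15), 0.21 with median scaling (0.22), 0.21 without background correction (0.083) and 0.25 at offset 50 (0.064). Its other probe was undetected on all shCON arrays and detected on all 3 shCypB arrays, at least 1.18-fold higher. That probe passed the detection filter only through the shCypB arrays, so its call (adjusted p = 0.042, limma) is no support for a rise. POLR1C, also shared with polymerase III, read 8.995, 8.691 and 8.767 in shCON and 9.005, 8.996 and 8.910 in shCypB (0.15 ± 0.11, adjusted p = 0.32), and its groups overlapped.

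Box C/D small nucleolar RNPs place methyl groups on the ribose of ribosomal RNA. In 2 of their 5 proteins, NOP56 and FBL, the level fell, and the remaining 3 were not called (20.8% of all tested genes were lower). NOP56, a scaffold protein of the particle, read 10.16, 10.28 and 10.49 in shCON and 9.86, 9.45 and 9.88 in shCypB, a fall of 0.58 ± 0.15 (1.49-fold, adjusted p = 0.018). Its other probes gave -0.54 (adjusted p = 0.026) and -0.53 (adjusted p = 0.0043), so all 3 were called the same way. Without the third shCON array the brightest probe's change was -0.49 (adjusted p = 0.052).

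FBL, fibrillarin, the methyltransferase of the particle, read 11.67, 11.70 and 11.53 in shCON and 11.19, 11.25 and 11.20 in shCypB, a fall of 0.42 ± 0.09 (1.34-fold, adjusted p = 0.0095). The call was kept in all 15 alternative settings. NOP58, the partner of NOP56, read 9.62, 9.66 and 9.71 in shCON and 9.56, 9.45 and 9.46 in shCypB, and did not pass although the groups did not overlap (-0.17 ± 0.09, adjusted p = 0.17). SNU13, which binds the kink-turn of these RNAs and also of a spliceosomal RNA, changed by -0.13 ± 0.11 (adjusted p = 0.40). RRP9, the protein particular to the small nucleolar RNA that guides early cleavage of the precursor, changed by -0.14 ± 0.15 (adjusted p = 0.51). The estimates of all 5 proteins were negative, with a median of -0.17, where 4996 of 10517 tested genes had a negative estimate.

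**Figure D3:**
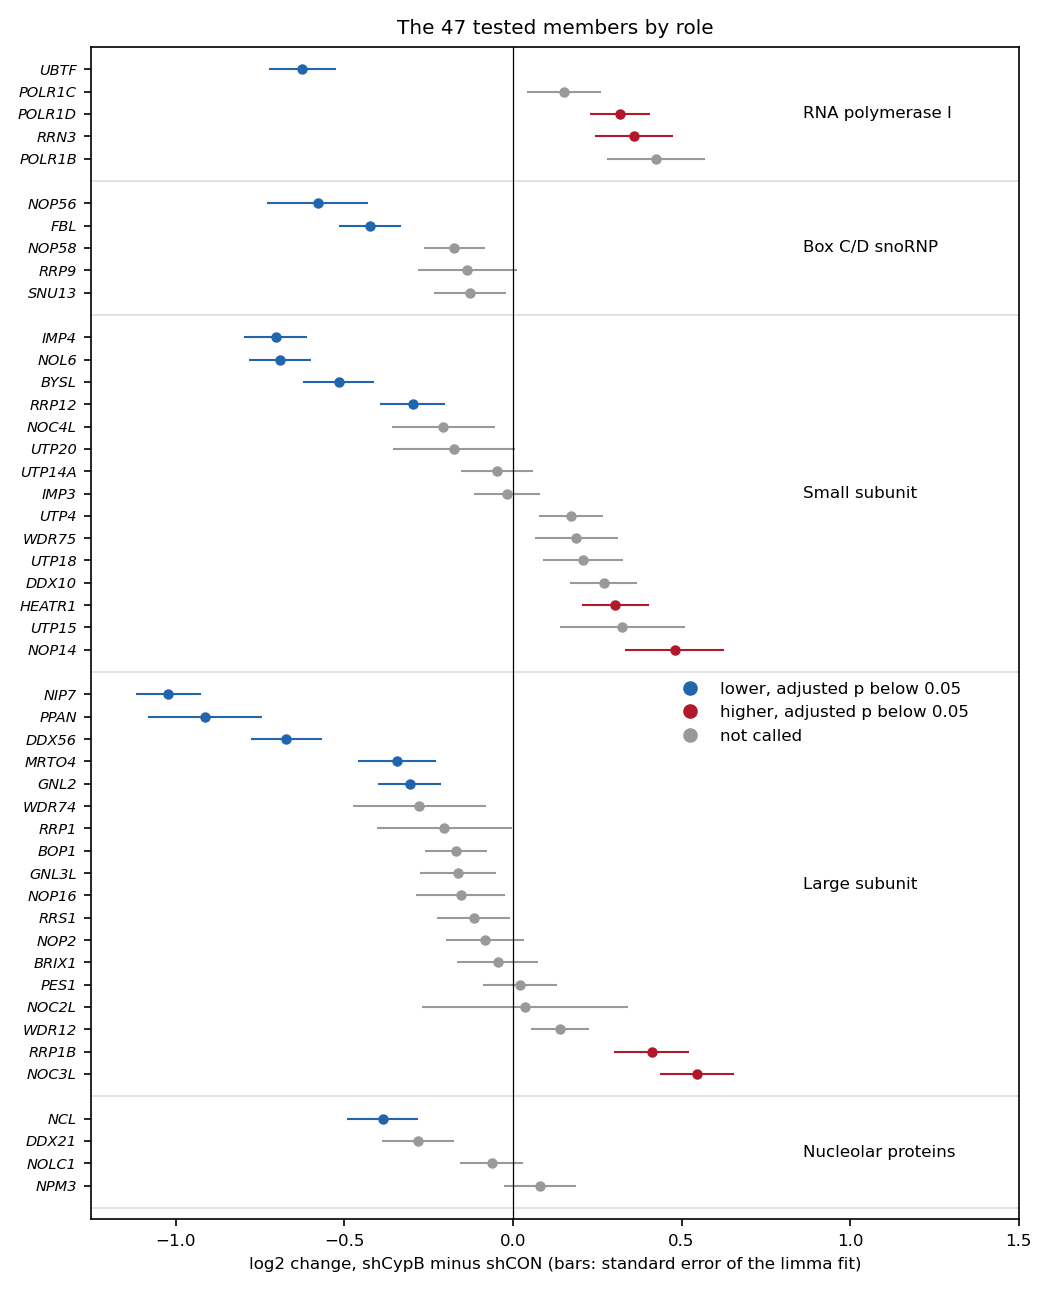
Log2 change of the 47 tested members (x axis, shCypB minus shCON), in blocks by role, with points for the fitted change and bars for its standard error, blue for lower, red for higher and grey for not called. The polymerase I block holds 1 lower and 2 higher genes, and in the small and large subunit blocks lower genes (4 and 5) stand beside higher ones (2 and 2).

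Among the 15 tested genes of the small subunit processome and small subunit assembly, 4 were lower, 2 higher and 9 not called, with a median change of -0.02. The shares of all tested genes were 20.8% lower and 23.1% higher. IMP4 is a processome protein that joins the guide RNA to the precursor, and its promoter letters are shown above. It read 11.11, 11.06 and 11.12 in shCON and 10.44, 10.45 and 10.29 in shCypB, a fall of 0.70 ± 0.09 (1.63-fold, adjusted p = 0.0011). In the authors' processed intensities the same probe stood at 2298, 2155 and 2305 in shCON and at 1472, 1513 and 1312 in shCypB. IMP3, which works in one complex with IMP4, read 11.20, 11.21 and 11.28 in shCON and 11.11, 11.19 and 11.34 in shCypB (-0.02 ± 0.10, adjusted p = 0.91). The 95% interval of the IMP3 change was -0.25 to 0.21, which leaves out the change of IMP4, though the difference between the partners was not tested.

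NOL6, a large processome protein, read 9.76, 9.83 and 9.78 in shCON and 9.12, 9.01 and 9.18 in shCypB, a fall of 0.69 ± 0.09 (1.61-fold, adjusted p = 0.0011). A dim NOL6 probe, detected on 2 arrays of each group, changed by 0.11 ± 0.21 (adjusted p = 0.72), and the mean of both probes by -0.29 (adjusted p = 0.11). BYSL, the assembly factor bystin, read 8.73, 8.85 and 8.63 in shCON and 8.31, 8.23 and 8.11 in shCypB, a fall of 0.52 ± 0.11 (1.43-fold, adjusted p = 0.0070). In both genes the shCypB arrays lay clearly below the shCON arrays. RRP12, known in yeast for export of both subunits from the nucleus, read 8.55, 8.73 and 8.55 in shCON and 8.28, 8.33 and 8.33 in shCypB, a fall of 0.30 ± 0.10 (adjusted p = 0.044). Its call was lost whichever array was left out (adjusted p 0.058 to 0.12).

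The higher genes of the small subunit were NOP14 and HEATR1. NOP14, a processome protein, read 7.62, 7.44 and 7.22 in shCON and 7.69, 7.92 and 8.10 in shCypB, a rise of 0.48 ± 0.15 (adjusted p = 0.036), and its other probe rose by 0.47 (adjusted p = 0.044). The call was lost without array 2 or array 3 of either group (adjusted p 0.076 to 0.12). HEATR1, which in yeast belongs to the processome group needed for transcription of ribosomal DNA, read 9.026, 8.999 and 9.152 in shCON and 9.448, 9.257 and 9.384 in shCypB, a rise of 0.30 ± 0.10 (adjusted p = 0.046). It was called in 1 of the 6 fits that left out an array, the one without the third shCON array, and the adjusted p reached 0.14 in the others.

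The 9 genes of this role that were not called had changes between -0.21 and 0.32 (adjusted p 0.067 to 0.91). UTP4, UTP15, UTP18 and WDR75, all processome proteins with WD repeats, had estimates of 0.17, 0.32, 0.21 and 0.19. The helicase DDX10 read 8.82, 8.73 and 8.77 in shCON and 8.92, 9.05 and 9.15 in shCypB (0.27 ± 0.10, adjusted p = 0.067). Its groups did not overlap, and it was called in 5 alternative settings (lowest adjusted p 0.022). NOC4L and UTP20 had estimates of -0.21 and -0.17, the latter detected on 3 shCON and 1 shCypB arrays. Other tested NOC4L probes changed by -0.24 (adjusted p = 0.24) and 0.27 (adjusted p = 0.42). For UTP14A the brightest probe changed by -0.05 (adjusted p = 0.76), and another probe was called lower at -0.30 (adjusted p = 0.049).

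**Figure D4:**
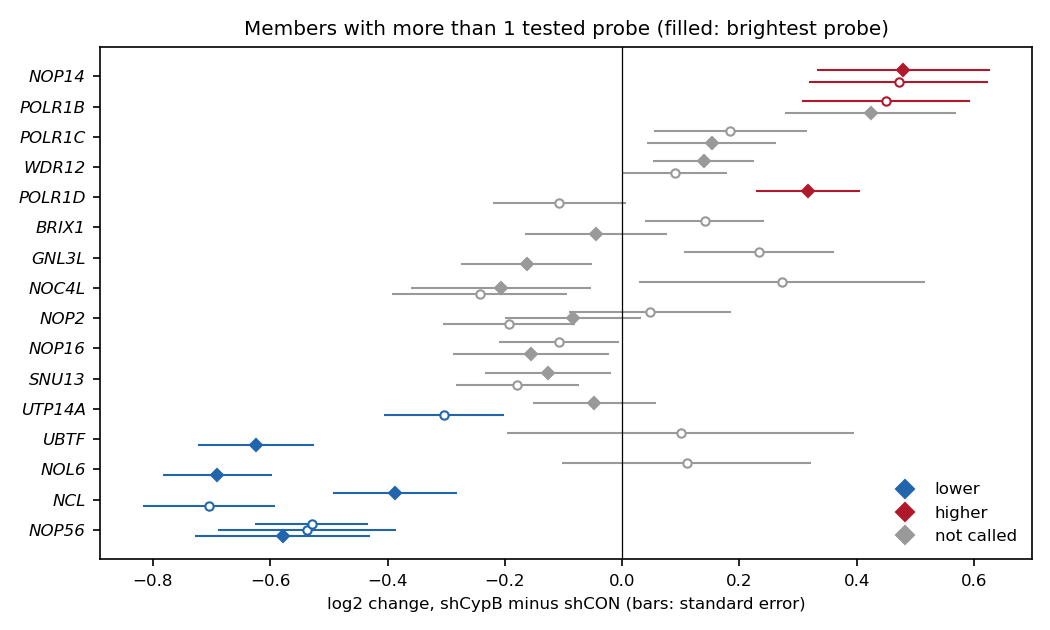
Log2 change (x axis, shCypB minus shCON) of every tested probe of the 16 members with more than 1, with diamonds for the brightest probe, circles for the others, bars for the standard error, and colours for the call. All probes were called the same way in NCL, NOP56 and NOP14, no gene had probes called in opposite directions, and in 7 genes the probes differed in sign.

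Large subunit assembly had 18 tested genes, of which 5 were lower, 2 higher and 11 not called, with a median change of -0.16. The shares of all tested genes were 20.8% lower and 23.1% higher. NIP7, known in yeast for its part in the assembly of the large subunit, had the greatest change of all members. It read 10.09, 10.19 and 10.29 in shCON and 9.23, 9.16 and 9.12 in shCypB, a fall of 1.02 ± 0.10 (2.03-fold, adjusted p = 0.00029). The authors' processed intensities of the probe were 1174, 1229 and 1340 in shCON and 665, 653 and 618 in shCypB. Leaving out any single array kept the adjusted p at or below 0.0025.

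PPAN, an assembly factor that binds the early large subunit precursor, read 6.31, 6.65 and 6.83 in shCON and 5.80, 5.42 and 5.83 in shCypB, a fall of 0.91 ± 0.17 (1.88-fold, adjusted p = 0.0046). The fall was 0.53 without background correction (adjusted p = 0.0011) and 0.57 in the authors' processed values (adjusted p = 0.00020). RefSeq also lists a readthrough transcript of PPAN with its neighbour P2RY11, and whether the probe reads it was not checked. DDX56, a nucleolar RNA helicase, read 10.08, 10.21 and 10.34 in shCON and 9.59, 9.56 and 9.46 in shCypB, a fall of 0.67 ± 0.10 (1.59-fold, adjusted p = 0.0021). For NIP7, PPAN and DDX56 alike, the highest shCypB array stood well below the lowest shCON array.

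Smaller falls were seen in MRTO4 and GNL2. MRTO4, a relative of the stalk protein P0 that holds its place on the precursor, read 8.48, 8.71 and 8.46 in shCON and 8.21, 8.08 and 8.32 in shCypB, a fall of 0.34 ± 0.11 (adjusted p = 0.048). GNL2, a nucleolar GTPase, read 11.19, 11.20 and 11.29 in shCON and 10.89, 10.86 and 11.01 in shCypB, a fall of 0.31 ± 0.09 (adjusted p = 0.035). Both calls were lost whichever array was left out, with an adjusted p of up to 0.14 for MRTO4 and 0.10 for GNL2.

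NOC3L and RRP1B were higher. NOC3L, which in yeast pairs with the NOC2L counterpart on large subunit precursors, read 8.33, 8.26 and 8.50 in shCON and 9.01, 8.92 and 8.80 in shCypB, a rise of 0.55 ± 0.11 (1.46-fold, adjusted p = 0.0064). It kept its call in all 15 alternative settings. Its partner NOC2L had a change of 0.04 with a 95% interval of -0.68 to 0.75, on a probe detected on 2 of 3 shCON arrays. RRP1B, a nucleolar protein of the RRP1 family, read 7.06, 7.27 and 7.28 in shCON and 7.74, 7.49 and 7.62 in shCypB, a rise of 0.41 ± 0.11 (1.33-fold, adjusted p = 0.023). That call was lost without the first shCON array (adjusted p = 0.068) and without the first shCypB array (0.081) or the third (0.068). Its paralogue RRP1 had an estimate of the opposite sign, -0.20 ± 0.20 (adjusted p = 0.46).

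None of the members of the PeBoW complex, which is needed to mature large subunit RNA, was called. PES1 changed by 0.02 (95% interval -0.24 to 0.28), BOP1 by -0.17 (-0.38 to 0.05) and WDR12 by 0.14 (-0.06 to 0.34). BOP1 read 10.54, 10.46 and 10.44 in shCON and 10.38, 10.30 and 10.25 in shCypB. In BOP1 the shCypB arrays lay below and in WDR12 above all shCON arrays, and in PES1 the groups overlapped. A second WDR12 probe of like brightness changed by 0.09 (adjusted p = 0.48), and its groups overlapped. The groups did not overlap in 56.8% of all tested genes. BRIX1, an early large subunit factor, read 10.96, 10.56 and 10.85 in shCON and 10.74, 10.76 and 10.74 in shCypB (-0.04, 95% interval -0.33 to 0.24). A dimmer BRIX1 probe changed by 0.14 (adjusted p = 0.32). NOP2, which methylates cytosine in large subunit RNA, changed by -0.08 (-0.35 to 0.19). Other tested NOP2 probes changed by -0.19 (adjusted p = 0.22) and 0.05 (adjusted p = 0.82). The 5 other members of this role that were not called, WDR74, RRP1, GNL3L, NOP16 and RRS1, had estimates from -0.28 to -0.12 (adjusted p 0.30 to 0.46). A second, dimmer GNL3L probe had the opposite sign, at 0.23 (adjusted p = 0.19).

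Of the abundant nucleolar proteins, NCL was lower and DDX21, NOLC1 and NPM3 were not called. NCL, nucleolin, which binds nascent precursor RNA, read 11.21, 11.35 and 11.48 in shCON and 11.04, 10.90 and 10.95 in shCypB, a fall of 0.39 ± 0.11 (1.31-fold, adjusted p = 0.024). Its other probe fell by 0.71 ± 0.11 (adjusted p = 0.0024). The call of the brightest probe was lost without array 2 or array 3 of either group (adjusted p 0.056 to 0.074). DDX21, a helicase that acts on both polymerase I transcription and RNA processing, read 10.38, 10.30 and 10.57 in shCON and 10.06, 10.21 and 10.14 in shCypB (-0.28 ± 0.11, adjusted p = 0.074). Its groups did not overlap, and it was called in 5 alternative settings (lowest adjusted p 0.010). NOLC1, a chaperone of small nucleolar RNPs, changed by -0.06 (95% interval -0.28 to 0.16), and NPM3, a relative of nucleophosmin, by 0.08 (-0.17 to 0.33). NPM1 itself was detected on 0 arrays with the only probe that the probe table named for it, and has no reported level. The table did not list 17110 probes of the array, and whether any of them reads NPM1 is unknown here. A low level of NPM1 cannot be read from this.

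Other genes of the same pathway, from lists that held no member, gave equal counts in both directions. Of 94 tested genes, 18 were lower and 18 higher (19.1% each), with a median change of 0.03. These shares lay near those of all tested genes, 20.8% lower and 23.1% higher, and no list test was made. Of 17 further polymerase I genes, 4 were lower and 1 higher. The polymerase I subunit genes POLR1E and POLR1H fell by 0.89 ± 0.11 (adjusted p = 0.00070) and 0.57 ± 0.14 (adjusted p = 0.015). TAF1B, of the promoter selectivity complex, fell by 0.74 ± 0.13 (adjusted p = 0.0041), while the subunit gene POLR1F rose by 0.78 ± 0.14 (adjusted p = 0.0037). So subunits of one enzyme moved in both directions.

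Of 36 further small subunit genes, 7 were lower and 7 higher. The helicase gene DDX49 fell by 1.24 ± 0.12 (adjusted p = 0.00029), RRP7A by 1.09 ± 0.09 (adjusted p = 0.00015), and EMG1, a methyltransferase of small subunit RNA, by 1.05 ± 0.11 (adjusted p = 0.00039). UTP25 rose by 0.91 ± 0.13 (adjusted p = 0.0014). Of 41 further large subunit genes, 7 were lower and 10 higher. RSL24D1, an early large subunit factor, rose by 1.11 ± 0.10 (adjusted p = 0.00021) and NMD3, the export adaptor of the large subunit, by 0.90 ± 0.09 (adjusted p = 0.00041). URB1 rose by 1.01 ± 0.25 (adjusted p = 0.016; 0.058 without the third and 0.051 without the second shCypB array), and RSL1D1 fell by 0.80 ± 0.09 (adjusted p = 0.00046).

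**Figure D5:**
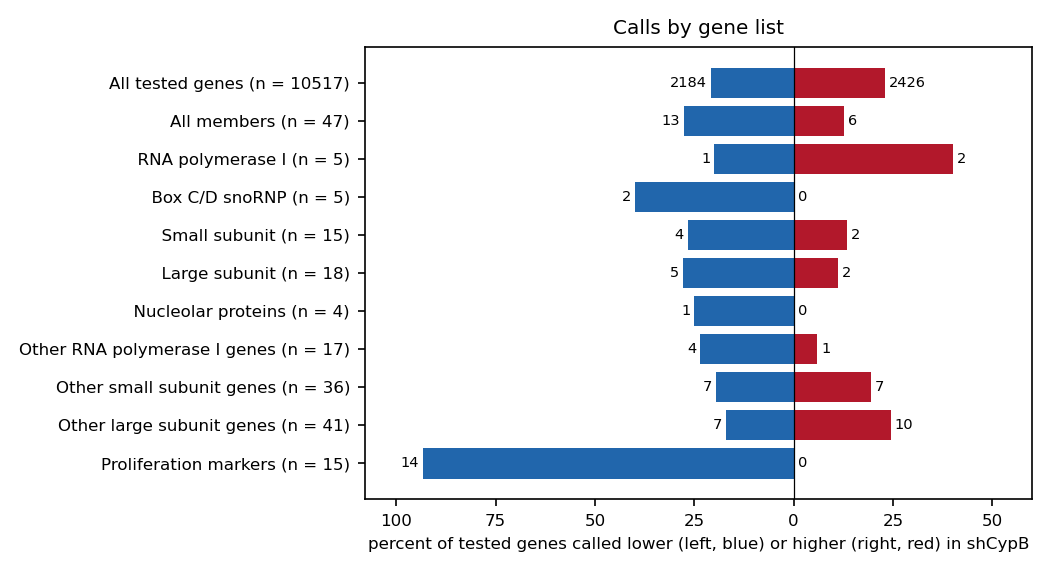
Percent of tested genes called lower (left, blue) and higher (right, red) in shCypB for all tested genes, the members, the members by role, further genes of the pathway and proliferation markers, with the number of genes at each bar and the number tested in brackets. The members stood at 13 lower and 6 higher of 47, all tested genes at 2184 and 2426 of 10517, and the proliferation markers at 14 lower and 0 higher of 15.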

How the data were processed

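The authors deposited bead signal intensity for 47231 probes on 6 arrays, not normalized per the file headers, each with a deposited detection p-value in steps of 1 in 770. A table of processed intensity was deposited as well. The submitters' processing notes name Partek without its role, and the normalization behind this table is unknown here. Signals were corrected with limma 3.58.1 (R 4.3.3) normexp, controls inferred from detection p-values, offset 16, then quantile normalized and log2 transformed. The 17608 probes detected at p below 0.05 on at least 3 of 6 arrays were fitted with lmFit and eBayes on group alone (residual degrees of freedom 4, prior 3.51), with Benjamini-Hochberg adjustment of p over all of them. Adjusted p-values in the text come from these limma fits, errors are standard errors, and n is 3 arrays per group, which limits the precision. With 3 arrays a side, an exact two-sided permutation p can reach no lower than 0.1, so none was computed.

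The probe table gave 1 gene for 30113 probes, several for 8 and did not list 17110. Symbols were updated through Entrez identifiers to RefSeq GRCh38.p14, which also gave the promoter windows. The 50 listed members with a probe had 77 probes, of which 66 were tested. For a probe undetected in a whole group, the fold is a bound against the higher of its own value and the lowest detected value per array (5.12 to 5.29, log2). The scripts were tested on simulated data. Members and gene lists were chosen with earlier results of these data known. Named genes are all members, up to 4 called genes with the greatest change from each other pathway list, PPIB and MYC. Values on each array are given for called members and for the members that are not called but needed to describe a role, at least the brightest. GFAP, FABP7, NES and SOX2 are the called glial markers, and RRM2, TK1 and MKI67 were chosen after their values were seen. The 15 alternatives changed the background correction, offset, scaling, detection filter, prior variance, replicate block, probe summary or input table, or left out 1 array.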

Additional observations from a re-analysis of the deposited data

How the results depend on the processing

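The 7 called members that passed in every setting in which they were tested were NIP7, DDX56, IMP4, BYSL, FBL and PPAN (lower; PPAN was not testable with detection at p below 0.01 on all 6 arrays) and NOC3L (higher). The other 12 lost the call in at least 1 of the 15 settings, 10 of them on leaving out an array, and 0 of the 19 reversed. The count of lower members, 13, was 8 to 10 on leaving out an array (8 without the third shCON array) and 9 to 14 elsewhere. Over all tested genes the lower count, 2184, was 1749 to 1987 on leaving out an array and 1873 to 2486 elsewhere. The count of higher members, 6, was 1 to 4 on leaving out an array, 3 with no detection filter (50 genes tested) and 1 with the replicate block. The replicate numbers did not pair the arrays (correlations of deviations -0.098, -0.109 and 0.0095), and the block left 9 lower members. The files name no slide, so no slide block was fitted. The members' median change, -0.13, was -0.13 to -0.081 on leaving out an array, -0.088 without background correction, -0.0946 at offset 50 and -0.0922 in the authors' processed values. The median of all genes lay between -0.03 (median scaling) and 0.03, and the lower share of all called genes between 46.4% and 51.6% (47.4% as reported). Of 700 values of single members, 611 kept direction and side of the threshold, 63 lost the call, 12 gained it (POLR1B, DDX10 and DDX21) and 14 changed sign, all in 7 members that were not called. These were IMP3 (0.018 in the authors' values, -0.080 to 0.033 on leaving out an array), NOC2L (-0.12 with median scaling, -0.057 in the authors' values, -0.31 to 0.22 on leaving out an array), BRIX1 (0.048 as a mean of probes, -0.16 to 0.039 on leaving out an array), GNL3L (0.035 as a mean of probes), on leaving out an array UTP14A (-0.11 to 0.027), NOP2 (-0.16 to 0.010) and PES1 (-0.063 to 0.089). Members at least 1.5-fold lower, 6, were 4 to 7 over the settings, and those at least 1.5-fold higher, 0, were 0 to 1 on leaving out an array. Of all tested genes, 6.21% (no detection filter) to 13.6% (detection at p below 0.01 on all 6 arrays) passed the lower limit. On leaving out an array, 11.9% to 13.2% passed the higher limit. Of 313 values of the other named genes, 303 kept direction and call, and 10 lost the call (MYC once, URB1 in 2 settings, SOX2 in 7). Without background correction the changes of PPIB (-0.71), FABP7 (-0.70), MKI67 (-0.70), DDX49 (-0.79) and URB1 (0.58) were over 1.5 times smaller, with the calls kept. The cause of these changes was not tested. Dim probes such as those of PPIB, PPAN, POLR1B, NOC2L, UTP20 and RRP9 and the dimmer UBTF probe lie near the detection floor, where signal over background limits what can be seen. The brighter UBTF probe read 6.14 to 6.95 and was detected on all 6 arrays. Its change too was smaller without background correction (-0.40, against -0.62).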
